A study of Homo sapiens with 8 samples.

Results

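HEL cells, a human erythroleukaemia line whose growth depends on an activated JAK2 kinase, were compared after 48 h with both LY2784544 and GRN163L or with the vehicle DMSO alone. The comparison rests on 4 of the 8 arrays of the study, 2 with the combination and 2 with vehicle (control), and on the 19181 of 33297 probe sets that the platform annotation names with exactly 1 gene. The other 4 arrays were cells given 1 agent, LY2784544 at 0.5 µM or GRN163L at 20 µM. In the fit they served only to estimate the spread. They also counted in the mean over the 8 arrays that chose the genes tested and their probe sets. The labels do not restate the doses for the combination. The whole design was carried out in 2 separate experiments, so each experiment gave 1 combination array and 1 control array, and the change is given for each experiment and as their mean. All groups share 1 cell line and 1 time point, and no control oligonucleotide is among the arrays analysed here.

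LY2784544 inhibits JAK2, a tyrosine kinase that couples receptors for erythropoietin, thrombopoietin and other cytokines to the STAT transcription factors. STAT factors induce genes for growth and survival and also the SOCS proteins, which feed back on the kinase. GRN163L, also called imetelstat, is a lipid-linked oligonucleotide that pairs with the template region of TERC, the RNA of telomerase, and so blocks the enzyme that lengthens chromosome ends. HEL cells carry erythroid and megakaryocytic features at the same time. These features were measured here: GATA1, ITGA2B, ITGB3, RHAG, KEL and TFRC, which are blood, megakaryocyte and erythroid genes, lay between 10.11 and 12.2 on all 4 arrays. CD3E, MS4A1, CD14, EPCAM and DCN, which define T cells, B cells, monocytes, epithelium and fibroblasts, lay between 2.91 and 3.98, under the level of 4.37 needed for testing. All levels are log2 RMA signals, on which a difference of 1 is a 2-fold difference, and levels of different genes are not compared because each probe set has its own response. In bulk RNA, fewer cells of a kind and less RNA per cell cannot be told apart.

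With both agents, 95 genes rose and 341 fell among 12570 genes tested (limma, Benjamini-Hochberg adjusted p below 0.05), which is 0.756% and 2.71% of the genes and 3.47% in all. The mean change was below 0 for 57.1% of the genes tested. With the experiment as a block, 357 genes rose and 1025 fell, or 2.84% and 8.15%, and all 436 genes called without the block were among them. Genes at least 2-fold higher in both experiments numbered 61 (0.485%) and genes at least 2-fold lower in both numbered 187 (1.49%). Leaving out either array of a single agent gave the same fit, because the array left then adds nothing to the spread. The number of calls rested on few arrays and fell without some of them but rose without others. It was 143 without either GRN163L array, 109 without the combination array of experiment 1, 92 without the control array of experiment 1 and 57 without that of experiment 2, and 34 genes kept their call whichever of the 8 arrays was left out. Of those 34, LYVE1 and PPBP were higher and 32 were lower. The balance of higher and lower calls depended on scaling. The median of all tested genes was lower on the combination arrays (7.23 and 7.36) than on the control arrays (7.48 and 7.46). Over all probe sets the median was instead higher on the combination arrays (5.25 and 5.19) than on the control arrays (5.07 and 5.12). Setting the arrays to 1 median of the tested genes raised every change by 0.175. On that scale 174 genes rose and 184 fell, so the share of calls that were higher was 48.6% against 21.8% without it. After quantile normalization of the tested genes, which shifted the median change by 0.107, the share was 37.0%. Of the 436 calls, 279 were kept after median normalization and 306 after quantile normalization, and none changed sign under either.

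The 2 experiments differed in how many genes moved. In experiment 1, 219 genes were at least 2-fold higher and 732 at least 2-fold lower, and in experiment 2 the counts were 169 and 342. The 61 genes higher in both made up 27.9% of the first list and 36.1% of the second, and the 187 lower in both made up 25.5% and 54.7%. No gene was at least 2-fold higher in one experiment and at least 2-fold lower in the other. Across the 12570 genes, which are not independent replicates and share their arrays, the changes in the 2 experiments had a Pearson r of 0.584 and a Spearman rho of 0.526. Of the 436 called genes, 250 changed more in experiment 1, and the median size of their change was 1.19 in experiment 1 and 1.09 in experiment 2. On the first principal component of all 8 arrays, which held 40.7% of the variance, the combination arrays lay at 37.0 in experiment 1 and 11.9 in experiment 2, and the control arrays at -23.1 and -23.4.

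**Figure D1:**
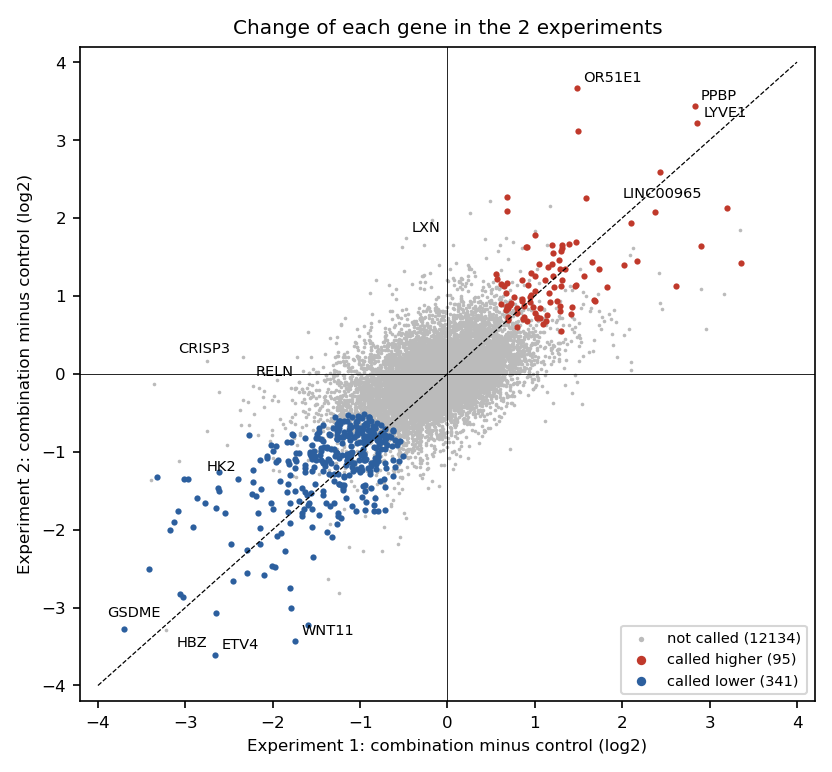
Change of each of the 12570 tested genes with both agents against control, in log2 units, in experiment 1 (horizontal) and experiment 2 (vertical). Red points are the 95 genes called higher, blue points the 341 called lower and grey points the rest; the dashed line marks equal changes. Most blue points lie at the lower left, LYVE1 and PPBP lie far out in the upper right, and CRISP3, RELN and LXN lie apart because their changes had opposite signs in the 2 experiments.

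SOCS3, BCL3, PIM1 and other JAK-STAT feedback and target genes fell with both agents. Of 28 tested, 27 had a lower mean, 6 fell and none rose, where 57.1% of all genes tested had a lower mean and 2.71% fell. The median change was -0.575 (-0.555 in experiment 1 and -0.73 in experiment 2) against -0.065 over all genes tested. With the experiment as a block 13 fell, beside 8.15% of all genes tested. Leaving out 1 array gave 2 to 6 falling members, the fewest without the control array of experiment 2.

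SOCS3, a STAT-induced inhibitor of cytokine receptors and JAK kinases, was at 5.23 and 5.58 with both agents and at 8.29 and 8.41 in control. The combination arrays lay below both control arrays by more than the arrays of a group differed, and SOCS3 was 7.7-fold lower (log2 change -2.94, SE 0.18, adjusted p = 0.000477). SOCS1, a second feedback inhibitor of this family, was at 6.42 and 6.28 with both agents and at 7.80 and 7.23 in control (-1.16, adjusted p = 0.0449). BCL3, an IkB-like nuclear cofactor of NF-kB that STAT3 can induce, was at 6.24 and 6.19 against 8.70 and 8.85 in control (-2.56, SE 0.16, adjusted p = 0.000477). Of the PIM kinases, which act on growth and survival downstream of STAT5, PIM1 was at 10.81 and 10.58 against 12.02 and 12.01 in control (-1.32, adjusted p = 0.00696), and PIM2 at 10.68 and 10.59 against 11.30 and 11.33 (-0.68, adjusted p = 0.0423). PIM3 had a change of -0.055 and did not pass. ID1, a helix-loop-helix protein that restrains differentiation, fell as well (8.31 and 8.76 against 9.91 and 10.45 in control, -1.65, adjusted p = 0.0123). MYC (-0.25), BCL2L1 (-0.41) and the cyclin gene CCND2 (-0.62) did not pass.

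CISH, the SOCS family member that STAT5 induces, was at 7.62 and 7.32 with both agents and at 8.46 and 8.14 in control. Its groups did not overlap and its change was nearly equal in the experiments (-0.84 and -0.82), yet its fall passed under the block (adjusted p = 0.0134) and not without it (0.085). The STAT element TTCNNNGAA, which reads alike on both strands, was searched in the RefSeq promoters from 250 bases before to 50 after each gene start. It stood in 4 of the 22 tested members of the list with a promoter in the table, in none of the 6 called ones, and in 6.34% of the 9969 tested genes with a promoter. CISH held 4 matches, whose first bases lie at -241, -230, -129 and -112 from the gene start, and its promoter is shown for them, chosen after its values were seen (GRCh38.p14, chr3:50611725-50612024, minus strand, matches in capitals).
CISH promoter: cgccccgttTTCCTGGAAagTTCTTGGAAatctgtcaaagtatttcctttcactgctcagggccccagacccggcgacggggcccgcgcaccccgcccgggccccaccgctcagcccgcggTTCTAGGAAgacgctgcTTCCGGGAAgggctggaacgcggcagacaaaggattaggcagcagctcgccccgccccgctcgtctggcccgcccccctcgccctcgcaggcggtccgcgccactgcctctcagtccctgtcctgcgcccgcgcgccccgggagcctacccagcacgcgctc

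JAK2 itself was at 10.89 and 10.89 with both agents and at 10.83 and 10.05 in control, a change of 0.45 that did not pass (adjusted p = 0.286). Of 22 tested JAK kinases, STAT factors and cytokine receptors 4 fell and none rose (median -0.32), beside 2.71% of all genes that fell. Between 2 and 5 fell when 1 array was left out, the fewest without the control array of experiment 2, the combination array of experiment 1 or either GRN163L array. IL2RB, a signalling chain of the receptors for interleukins 2 and 15, was at 4.36 and 4.81, near the level needed for testing, against 7.01 and 7.88 in control. Both combination arrays lay more than 2 units below either control array (-2.86, SE 0.30, adjusted p = 0.00465). KIT, the stem cell factor receptor, was at 7.42 and 8.69 with both agents against 10.29 and 10.28 in control (-2.23, adjusted p = 0.0241). The control arrays were alike and the combination arrays were 1 unit apart, lower in experiment 1. IL4R (-1.20) and the TNF receptor family member TNFRSF9 (-2.01) also fell, while EPOR was at 0.26 and CSF2RB at 0.56 without passing. The transcription factor gene STAT5B was at -0.57 and passed with the block only (adjusted p = 0.0368, against 0.0731).

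Genes that ERK signalling induces, which include feedback regulators and immediate early genes, had the lowest median of all lists, -1.045. Of 23 tested, 21 had a lower mean, 4 fell and none rose, with 16 falling when the experiment was a block. Over all genes tested, 57.1% had a lower mean, 2.71% fell and 8.15% fell with the block. Between 1 and 7 members fell when 1 array was left out, the fewest without the control array of experiment 2. The PEA3 factors, ETS transcription factors that ERK signalling raises, all fell. ETV4 was at 5.50 and 4.94 with both agents and at 8.16 and 8.55 in control, 8.78-fold lower with widely separate groups (-3.13, SE 0.25, adjusted p = 0.00119). ETV5 was at 6.98 and 7.27 against 8.84 and 9.54 in control (-2.06, adjusted p = 0.00827). ETV1 was at 4.32 and 4.58, around the level needed for testing, against 5.44 and 5.69 in control (-1.11, adjusted p = 0.0219). IER2, an immediate early gene, fell by 1.54 on the log2 scale (adjusted p = 0.0423). Some immediate early genes passed with the block only and others under neither fit. FOS was at 5.45 and 8.43 with both agents and at 7.72 and 9.09 in control, so its groups overlapped, its level in experiment 1 was lower in both groups, and its adjusted p was 0.502 without and 0.0481 with the block. EGR1 changed by -1.04 (adjusted p = 0.014 with the block, against 0.25) and DUSP6, an ERK phosphatase, by -1.46 (0.0157, against 0.144). FOSB, an AP-1 subunit, was at 5.34 and 7.51 with both agents and at 5.47 and 7.16 in control and passed under neither fit (0.11, block adjusted p = 0.763).

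NF-kB and TNF superfamily genes gave 3 falls among 28 tested and no rise (median -0.32, 8 falls with the block). Of all genes tested, 2.71% fell, and 8.15% with the block. BCL3 was described above. TNFRSF9, a costimulatory receptor, was at 4.31 and 4.40 with both agents, near the level needed for testing, against 6.26 and 6.48 in control (-2.01, SE 0.16, adjusted p = 0.00119). TNIP1, which binds the NF-kB inhibitor A20, was at 6.86 and 6.91 against 8.01 and 8.02 in control (-1.13, adjusted p = 0.0217). The arrays of each group were nearly equal for TNIP1. NFKB2 (-0.95) and RELB (-0.86), the subunits of the alternative NF-kB dimer, passed with the block only, and RELA (-0.13) and NFKBIA (-0.11) did not pass.

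Some hypoxia targets and glycolysis genes fell with both agents, and the median of each list was lower in experiment 1 than in experiment 2. The change was below 0 in each of the 2 experiments for 17 of the 21 hypoxia targets and 20 of the 22 glycolysis genes. Of 21 tested hypoxia targets outside glycolysis, all had a lower mean, 9 fell and none rose. Over all genes tested, 57.1% had a lower mean and 2.71% fell. Their median was -0.745 for the mean change, -1.21 for experiment 1 and -0.44 for experiment 2. Of 22 glycolysis and glucose transport genes, 21 had a lower mean and 6 fell, with a median of -0.78 (-1.045 and -0.555). With the block 11 and 12 fell, beside 8.15% of all genes tested. Leaving out 1 array gave 2 to 9 falls among the hypoxia targets, the fewest without the control array of experiment 1, and 0 to 10 among the glycolysis genes, with 0 without that array or the combination array of experiment 1. HIF1A, the oxygen-labile subunit of the hypoxia factor, was at 9.49 and 9.91 against 10.11 and 10.06 in control and did not pass (-0.39, adjusted p = 0.364). EPAS1, the second such subunit, was at 4.69 and 4.68 against 5.69 and 5.70 in control (-1.01, adjusted p = 0.0485) and was named after its values were seen.

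Among the hypoxia targets, ERO1A, an oxidase that drives disulphide formation in the endoplasmic reticulum, was at 6.08 and 6.61 with both agents and at 8.63 and 8.40 in control. It was 4.5-fold lower and one of the genes that kept their call without any 1 array (-2.17, SE 0.23, adjusted p = 0.00465). P4HA1, a collagen prolyl hydroxylase subunit, was at 7.05 and 7.37 against 10.13 and 9.13 in control (-2.42, adjusted p = 0.0108). BNIP3, a mitophagy receptor, was at 8.58 and 9.49 against 11.55 and 10.84 in control (-2.16, adjusted p = 0.0258). In both genes the change was larger in experiment 1 (-3.08 against -1.76 for P4HA1 and -2.97 against -1.35 for BNIP3). EGLN1, an oxygen sensor that marks HIF subunits for destruction, fell by 1.62 and BHLHE40, a transcriptional repressor, by 2.06 on the log2 scale. VEGFA (-0.23), ADM (-0.39) and BNIP3L (-0.17) did not pass. The growth factor gene ANGPT2, at 4.40 and 4.60 against 7.82 and 7.10 in control, had the largest fall of the list (-2.96, adjusted p = 0.00642).

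Along glycolysis the falls were spread over uptake, the first steps and the later steps of the pathway. SLC2A3, a glucose transporter, was at 10.11 and 10.13 against 11.44 and 11.09 in control (-1.15, adjusted p = 0.0134). HK2, an inducible hexokinase, was at 8.27 and 8.63 against 10.50 and 9.87 in control (-1.74, adjusted p = 0.0147), while HK1 was at -0.43 without passing. PFKFB4, which sets a regulator of phosphofructokinase, was at 5.94 and 6.60 against 9.26 and 7.92 in control, and its control arrays were more than 1 unit apart (-2.32, adjusted p = 0.0338). ALDOC, an aldolase isoform, fell most, with 8.37 and 9.07 against 11.28 and 11.04 in control (-2.44, SE 0.37, adjusted p = 0.0144), while ALDOA was at -0.47. PGK1 (-0.97) and ENO2 (-1.14) fell, and GAPDH (-0.07) and LDHB (0.335) did not pass.

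The core of the hypoxia response element, ACGTG, was searched on both strands of the same promoters. It stood in 10 of the 12 called members of these lists with a promoter (83.3%), in 18 of the 36 tested members, in 25.9% of the promoters of all called lower genes and in 26.2% of those of the 9969 tested genes. PFKFB4 and TMEM45A were the called members without it. The promoters of ALDOC and ERO1A are shown because these were called members with matches. In ALDOC the letters CACGTG are a palindrome that counts on each strand, and a further match lies at -28 from the gene start, while the match in ERO1A lies at -114 (GRCh38.p14, minus strand for both, chr17:28576846-28577145 and chr14:52695509-52695808, matches in capitals). A match describes these letters and shows no binding.
ALDOC promoter: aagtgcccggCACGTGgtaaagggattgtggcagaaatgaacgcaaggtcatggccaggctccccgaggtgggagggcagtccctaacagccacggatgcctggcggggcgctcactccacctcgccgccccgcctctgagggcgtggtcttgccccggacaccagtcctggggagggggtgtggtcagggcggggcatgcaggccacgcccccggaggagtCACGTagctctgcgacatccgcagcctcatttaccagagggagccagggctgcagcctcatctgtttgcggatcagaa
ERO1A promoter: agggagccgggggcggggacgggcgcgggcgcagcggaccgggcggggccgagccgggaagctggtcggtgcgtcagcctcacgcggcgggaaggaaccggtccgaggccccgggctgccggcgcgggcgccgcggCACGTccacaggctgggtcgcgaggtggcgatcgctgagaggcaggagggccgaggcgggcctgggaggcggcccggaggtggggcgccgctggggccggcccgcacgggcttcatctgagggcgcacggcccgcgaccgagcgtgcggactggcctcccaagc

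**Figure D2:**
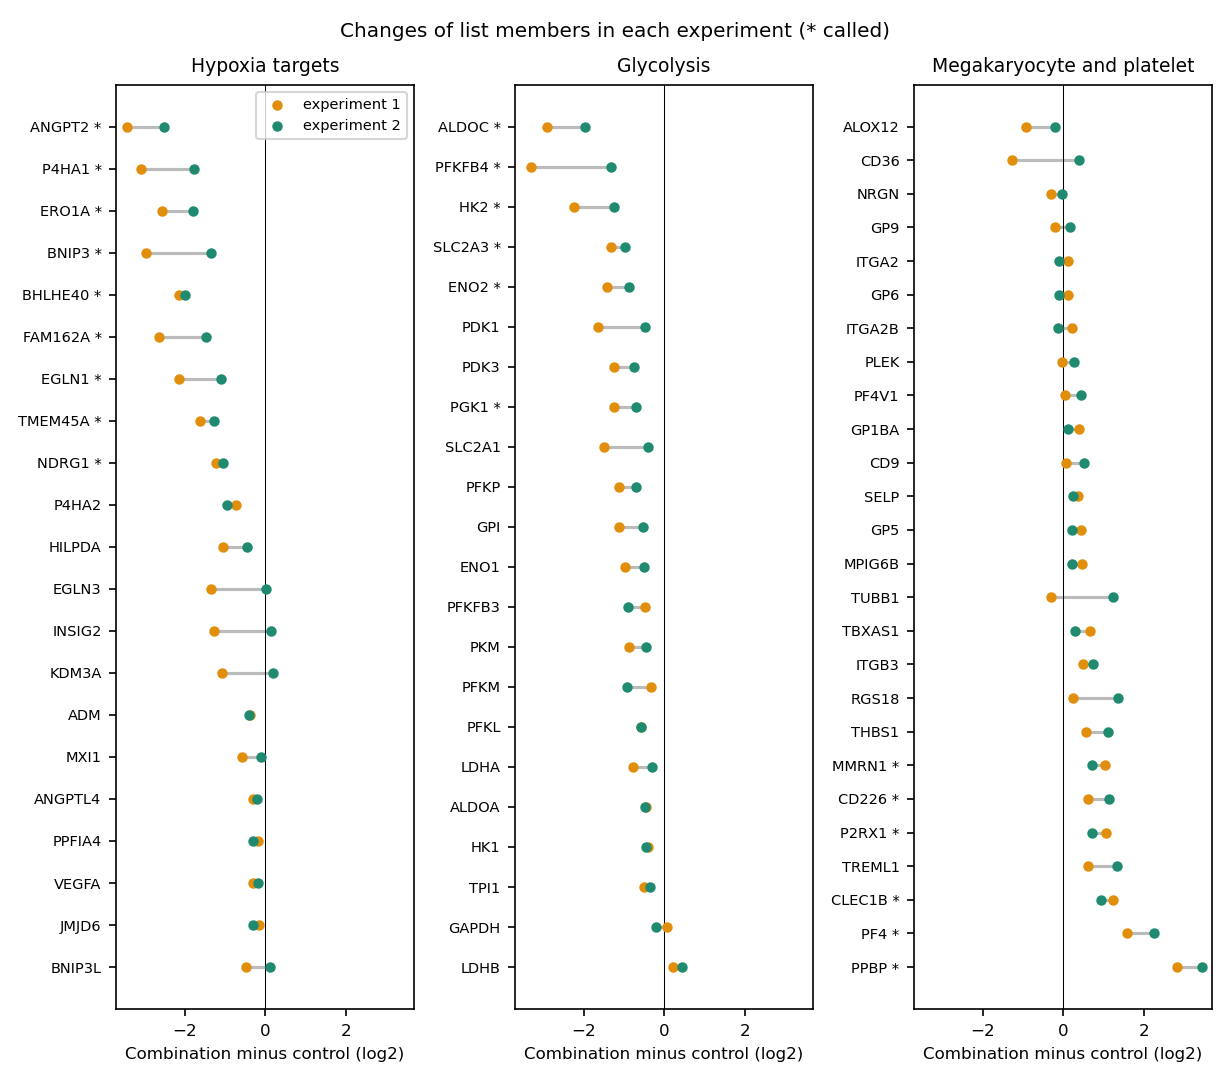
Change with both agents against control, in log2 units, of every tested hypoxia target, glycolysis gene and megakaryocyte or platelet gene, with experiment 1 in orange, experiment 2 in green and an asterisk at called genes. Orange points lie further left than green ones for most hypoxia and glycolysis genes, and PPBP and PF4 stand furthest right among the platelet genes.

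Replication-dependent histone genes, which are transcribed in S phase to package new DNA, all had a lower mean. Of 42 tested, 38 were lower in both experiments, 11 fell and none rose (median -0.79, with -1.01 for experiment 1 and -0.615 for experiment 2). Over all genes tested, 57.1% had a lower mean and 2.71% fell. After median and quantile normalization 39 and 40 of the 42 had a lower mean. Of all genes tested, 8.15% fell with the block. With the block 22 fell, under either scaling 6 fell, and leaving out 1 array gave 0 to 23, with 0 without the control array of experiment 1 and 1 without that of experiment 2, the combination array of experiment 1 or either GRN163L array. H3C11, a histone H3 gene, was at 9.37 and 10.55 with both agents and at 11.99 and 12.06 in control (-2.06, adjusted p = 0.0194). H2AC4 was at 6.11 and 6.72 against 7.72 and 8.28 in control (-1.58, adjusted p = 0.0219), and H4C2 at 9.0 and 9.0 against 10.38 and 9.94 (-1.16, adjusted p = 0.021). H2BC7 was at 7.85 and 8.65 against 9.91 and 9.70 in control (-1.55, adjusted p = 0.0219). These 4 genes were picked as the members with the smallest p. Histone genes have near-identical copies, so that the signal of 1 probe set may come from several of them. The letters CCAAT, searched on both strands, stood in 33 of 37 tested histone promoters (89.2%) and 8 of the 10 called ones, against 36.5% of the promoters of tested genes. The promoter of H2BC7 is shown with its 3 matches in capitals, 1 of them on the other strand (GRCh38.p14, chr6:26199266-26199565, plus strand).
H2BC7 promoter: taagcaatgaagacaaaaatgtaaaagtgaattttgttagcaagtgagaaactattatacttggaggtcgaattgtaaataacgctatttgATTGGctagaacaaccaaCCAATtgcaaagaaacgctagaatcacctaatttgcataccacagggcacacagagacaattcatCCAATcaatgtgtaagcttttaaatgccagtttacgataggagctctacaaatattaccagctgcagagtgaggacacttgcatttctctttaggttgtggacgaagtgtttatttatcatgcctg

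Other cell cycle lists did not pass without the block. With the block, 8.15% of all genes tested fell. None of 40 DNA replication genes was called by limma (median -0.34; 5 had an unadjusted p below 0.05; 4 fell with the block, among them MCM7 at -0.72, a subunit of the replicative helicase). None of 28 genes of G2 and mitosis was called (10 at an unadjusted p below 0.05, 2 called with the block, and 5 called without the combination array of experiment 2). Their median was -1.06 in experiment 1 and -0.095 in experiment 2. CDK1, the mitotic kinase, changed by -1.60 in experiment 1 and 0.53 in experiment 2, and MAD2L1, a spindle checkpoint protein, by -2.01 and -0.72. In both lists the change was larger in experiment 1, as it was in the histones. None of 16 G1 cyclin and CDK inhibitor genes passed (median -0.10, 2 at an unadjusted p below 0.05).

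TERC, the RNA that GRN163L pairs with, was at 7.95 and 8.43 with both agents and at 9.58 and 9.26 in control. It was 2.35-fold lower with separate groups (-1.23, SE 0.24, adjusted p = 0.0338). TERT, the catalytic subunit, was at 5.07 and 4.90 against 4.80 and 4.98 in control, with overlapping groups (0.095, adjusted p = 0.824). ACD, the shelterin protein that recruits telomerase, was at 7.43 and 7.59 against 8.13 and 8.42 in control (-0.77, adjusted p = 0.0447). TERC and ACD were the 2 called members of 18 tested (median -0.23), where 2.71% of all genes tested fell. Neither passed after median normalization, and the count was 0 without any 1 of the control arrays, the GRN163L arrays or the combination array of experiment 1. POT1 (-0.63) and TINF2 (-0.37), which bind telomeric DNA and join the shelterin proteins, did not pass.

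PPBP, PF4 and 4 other platelet and megakaryocyte genes rose. Of 26 tested markers 21 had a higher mean, 17 of them in both experiments, 6 rose and none fell, and 9 rose with the block. Over all genes tested, 0.756% rose, 2.84% rose with the block and 57.1% had a lower mean. The median was 0.335, with 0.38 for experiment 1 and 0.425 for experiment 2. Leaving out 1 array gave 1 to 6, with 1 without either control array. PPBP, a platelet granule chemokine, was at 8.97 and 9.16 with both agents and at 6.14 and 5.72 in control. It was 8.78-fold higher with widely separate groups (3.13, SE 0.23, adjusted p = 0.00119). PF4, a second platelet chemokine, was at 7.69 and 8.52 against 6.11 and 6.27 in control (1.91, adjusted p = 0.0123). CLEC1B, the podoplanin receptor of platelets, was at 5.40 and 5.17 against 4.15 and 4.23 in control (1.09, adjusted p = 0.019). Both control values of CLEC1B lay under the level needed for testing, which its mean over all arrays passed. Low signals are compressed by RMA, so the size of its rise is uncertain. P2RX1, an ATP-gated channel, was at 10.03 and 9.68 against 8.97 and 8.96 in control (0.89, adjusted p = 0.0487), and MMRN1, a factor V carrier, at 9.61 and 9.46 against 8.58 and 8.75 (0.87, adjusted p = 0.0383). CD226, an adhesion receptor, rose too (0.88). The integrin subunits of the fibrinogen receptor did not pass without the block: ITGB3 was at 0.625 and ITGA2B at 0.045. GATA1, a factor shared by both lineages, had a change of -0.19 that did not pass.

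No erythroid marker passed in limma among 19 tested (2 at an unadjusted p below 0.05), and their median was -0.38 in experiment 1 and 0.24 in experiment 2. HBZ, the embryonic zeta globin gene, had a large change and a wide spread. It was at 5.20 and 6.25 with both agents and at 8.42 and 9.54 in control, with a fall of similar size in each experiment (-3.22 and -3.29) and arrays of a group 1 unit apart. It passed with the block (adjusted p = 0.0399) and not without it (0.0881), and its other probe set was at -3.77. HBE1, the embryonic epsilon globin gene, was at -0.05.

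Mast cell, basophil and eosinophil genes held 5 falls among 13 tested and no rise, with a median of -0.54, beside 2.71% of all genes that fell. Under median and quantile normalization 4 and 3 fell, and leaving out 1 array gave 1 to 5, with 1 without either control array. PRG2, the major basic protein of granules, was at 6.81 and 7.12 with both agents and at 9.84 and 9.99 in control. It was 7.73-fold lower, and the fall was alike in the experiments (-3.03 and -2.87, SE of the mean change 0.23, adjusted p = 0.00119). CPA3, a granule carboxypeptidase, was at 7.08 and 7.88 against 10.25 and 9.89 in control (-2.59, adjusted p = 0.0123). IL1RL1, the receptor for interleukin 33, was at 5.08 and 5.97 against 7.86 and 7.63 in control (-2.22, adjusted p = 0.0483). HPGDS, a prostaglandin D synthase, fell by 2.19 on the log2 scale and KIT by 2.23. FCER1A (0.16) and GATA2 (-0.44), which the same cells use, did not pass.

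Some markers of lymphoid, stromal and vascular cells also passed in this 1 line. Of 16 lymphocyte genes 4 fell (median -0.18), where 2.71% of all genes tested fell, and 2 to 5 fell when 1 array was left out, with 2 without the control array of experiment 2. PRF1, the pore protein of killer cells, was at 4.99 and 4.46 with both agents and at 6.78 and 7.46 in control (-2.39, adjusted p = 0.00544). ADA, adenosine deaminase, was at 5.40 and 6.19 against 8.05 and 7.91 in control (-2.18, adjusted p = 0.00544). CD79A and CD79B, the signalling chains of the B cell receptor, fell by 1.84 and 1.32 on the log2 scale. Of 8 fibroblast and epithelial markers 4 had a higher and 4 a lower mean, and THY1 and PDGFRB (-0.84) fell (median 0.015). After median normalization 1 of them was called. COL1A1, a collagen chain of fibroblasts, was at 0.29 and did not pass. THY1, a surface glycoprotein of fibroblasts and progenitors, was at 7.27 and 6.79 against 9.07 and 9.54 in control (-2.27, adjusted p = 0.00358). Of 12 endothelial markers 8 had a lower mean, 1 rose and 1 fell (median -0.25). LYVE1, a hyaluronan receptor of lymphatic endothelium, was the one that rose, with 7.16 and 7.74 against 4.30 and 4.52 in control (3.04, SE 0.30, adjusted p = 0.00379). Its control level was close to the level needed for testing. ANGPT2 was the one that fell, and PROX1, a transcription factor of lymphatic endothelium, was at -0.795 and passed with the block only (adjusted p = 0.026, against 0.0505). CD3E, MS4A1 and DCN, which define T cells, B cells and fibroblasts, stayed under that level on all 4 arrays. CD3D, a second T cell gene, was at 4.91 and 4.18 with both agents and at 4.25 and 4.37 in control. MPO, a neutrophil granule gene, was at 4.42 and 4.18 with both agents and at 4.2 and 4.13 in control. Both averaged under the level and lay above it on the combination array of experiment 1. None of 13 tested neutrophil and monocyte genes passed (2 at an unadjusted p below 0.05).

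**Figure D3:**
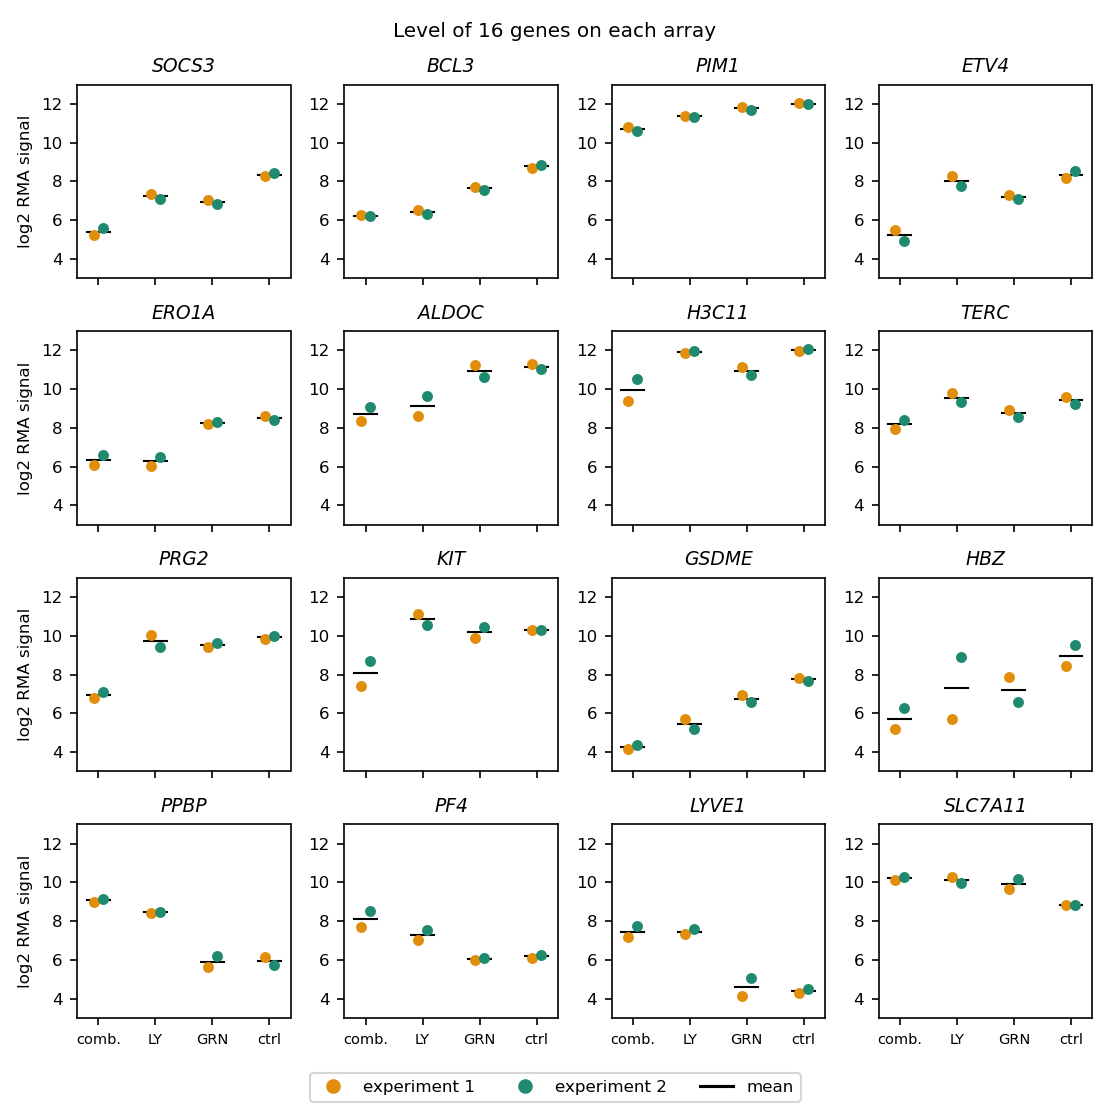
Level of 16 genes on each of the 8 arrays, in log2 RMA signal, with the combination (comb.) on the left, LY2784544 (LY) and GRN163L (GRN) alone between and control (ctrl) on the right. Orange points are experiment 1, green points experiment 2 and bars the mean of the 2 arrays. For GSDME and PRG2 both combination points lie at least 2 units below both control points, and the combination points of KIT and HBZ lie about 1 unit apart.

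Of 23 cell death genes 3 fell and none rose (median -0.10), where 2.71% of all genes tested fell. GSDME, a gasdermin that forms membrane pores once caspase 3 cleaves it, had the most negative change of the genes tested. It was at 4.14 and 4.38 with both agents, around the level needed for testing, and at 7.84 and 7.65 in control (-3.48, SE 0.22, adjusted p = 0.000477). The groups were widely separate, and no fold is given because the combination level lies where RMA compresses signals. BCL2, the survival factor, was at 4.73 and 4.65 against 5.60 and 5.47 in control (-0.84, adjusted p = 0.0492), and PRF1 was the third. MCL1 (-0.64) and BAK1 (-0.66) passed with the block only. None of 17 p53 targets passed (2 at an unadjusted p below 0.05), among them CDKN1A at -0.36 and MDM2 at -0.06.

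The cystine importer SLC7A11 and the glycine transporter SLC6A9 rose with the combination. They were the 2 called of 23 amino acid transporters and tRNA synthetases, where 0.756% of all genes tested rose. Of the 23, 20 had a higher mean and 3 a lower one (median 0.30). With the block 4 rose, beside 2.84% of all genes tested. Leaving out 1 array gave 0 to 3, with 0 without the control array of experiment 2. SLC7A11 was at 10.13 and 10.29 with both agents and at 8.85 and 8.83 in control (1.37, SE 0.21, adjusted p = 0.0155). SLC6A9 was at 9.20 and 9.25 against 8.05 and 7.88 in control (1.26, SE 0.16, adjusted p = 0.00772). Groups were separate for both, which were picked as called genes. Integrated stress response genes gave no call among 22 (median 0.20, 10 at an unadjusted p below 0.05): CHAC1 (0.695) and PSPH (1.01) rose with the block only, GDF15 (-1.26) fell with it, and ATF4 was at 0.41. After median normalization 2 members of this list were called higher. GSTP1, a glutathione transferase, fell, with 6.13 and 7.57 against 9.26 and 9.47 in control (-2.51, adjusted p = 0.0147).

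Interferon and antigen presentation genes held a few falls. IFITM1, a membrane protein that blocks virus entry, was at 9.28 and 9.38 with both agents and at 11.08 and 11.04 in control, with arrays of a group nearly equal (-1.73, SE 0.18, adjusted p = 0.00465). MX2 (-0.99) was the other call among 27 interferon-stimulated genes (median -0.18), beside 2.71% of all genes that fell. The count was 1 without either GRN163L array, without either control array and after median normalization. HLA-DRA, the alpha chain of HLA-DR, was at 5.77 and 6.23 against 7.50 and 7.35 in control (-1.42, adjusted p = 0.0185), and its other probe sets were at -1.19 and -1.12. HLA-DPA1 (-0.77) fell as well, among 12 HLA genes tested, and neither was called without a control array or the combination array of experiment 1. CIITA, the class II transactivator, was at 0.18, and HLA-B and B2M at -0.05 and -0.13, none of which passed.

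Among WNT, SMAD and TGF-beta genes 4 of 22 fell (median -0.23), with 3 and 2 after median and quantile normalization and 1 to 5 when 1 array was left out, with 1 without either GRN163L array, the combination array of experiment 1 or the control array of experiment 2. WNT11, a WNT ligand, was at 6.11 and 6.32 against 7.85 and 9.75 in control, and its control arrays differed by almost 2 units (-2.58, adjusted p = 0.0319). LEF1, a nuclear partner of beta-catenin, was at 7.66 and 7.67 against 9.21 and 8.92 in control (-1.40, SE 0.16, adjusted p = 0.00553). WNT5A (-1.23) and SKIL (-1.14), a SMAD corepressor, were the others. Of 27 MYC and ribosome biogenesis genes, 17 cholesterol genes, 24 unfolded protein and heat shock genes and 18 heme and iron genes none passed in limma, with 4, 0, 5 and 4 at an unadjusted p below 0.05 in that order. With the block ODC1 (-0.60), the ornithine decarboxylase of the first of these lists, did. Among 23 respiratory chain genes NDUFV1 (-0.86) fell, and among 20 lysosome genes CTSS (-1.02), a cathepsin, 1 member of each list beside 2.71% of all genes that fell. Neither was called without a control array, a GRN163L array or the combination array of experiment 1.

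**Figure D4:**
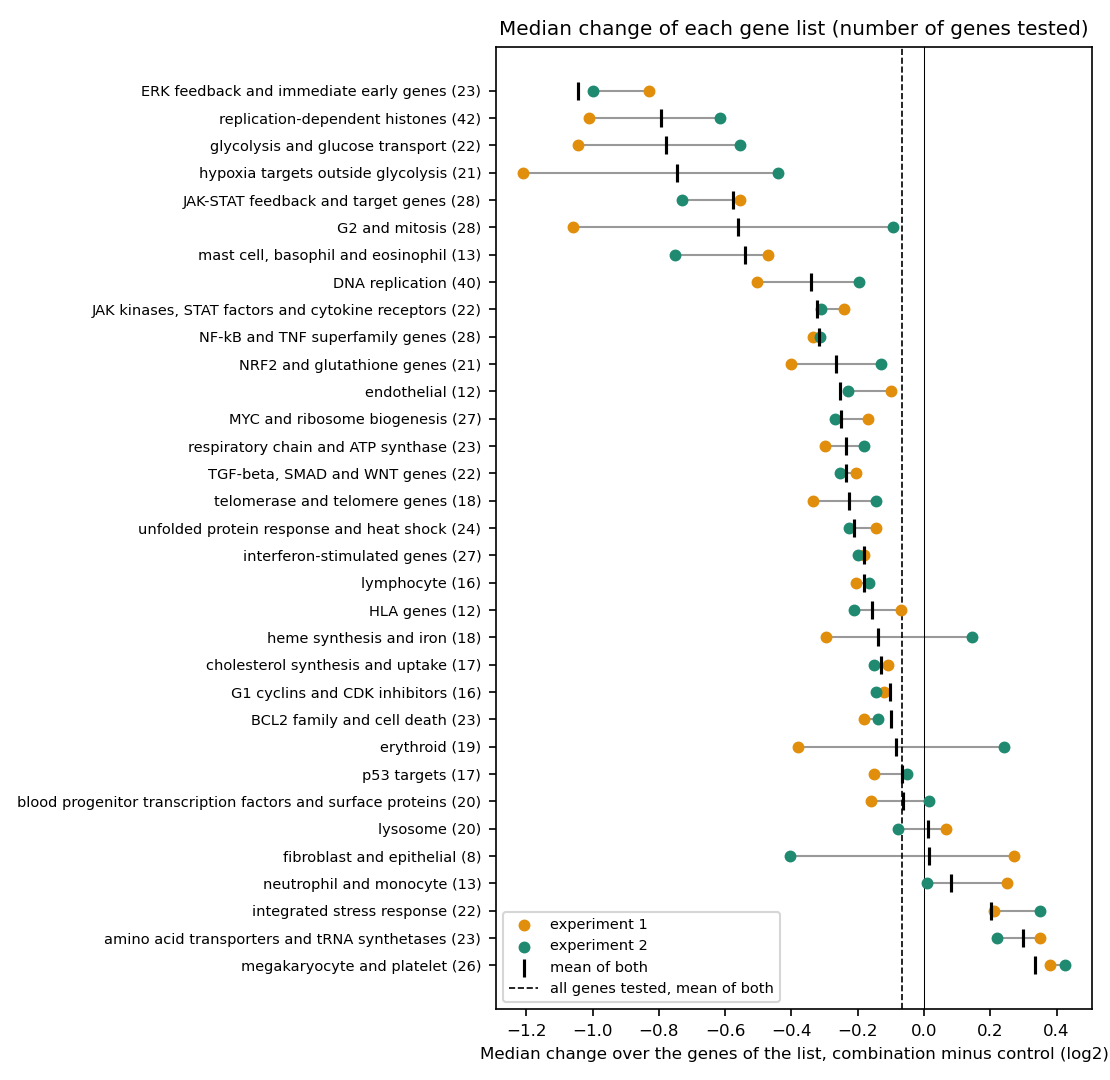
Median change of each gene list with both agents against control, in log2 units, with experiment 1 in orange, experiment 2 in green and the median of the mean changes as a black bar. The dashed line is the median of all genes tested, -0.065. ERK, histone, glycolysis, hypoxia and JAK-STAT lists lie furthest left, and megakaryocyte genes furthest right among the 33 lists drawn. Olfactory receptors, with a higher median of 0.56, are left out. The points of G2 and mitosis, hypoxia and erythroid genes lie far apart.

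Scaling turned the direction of some small medians. Median normalization added 0.175 to every change, and the median of all genes tested moved from -0.065 to 0.11. This shift left the place of each list against all genes as it was. After median normalization the median was above 0 for G1 cyclin and CDK inhibitor genes (0.072), BCL2 family and cell death genes (0.075), HLA genes (0.017), blood progenitor genes (0.113), cholesterol genes (0.045), heme and iron genes (0.037), erythroid markers (0.090) and p53 targets (0.110), all of which lay below 0 without it. The shift was too small to turn the ERK, JAK-STAT, hypoxia, glycolysis and histone medians, and it could only raise the megakaryocyte median. It is therefore no check on their direction. After quantile normalization these falling lists stayed below 0 and the megakaryocyte median above 0.

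Further large falls were those of LITAF, an endosomal protein, with 4.94 and 4.83 against 7.23 and 7.39 in control (-2.42), and UNC5B, a netrin receptor, with 6.31 and 5.58 against 7.91 and 8.80 (-2.41). The genes with the highest control level among those that fell were PIM1, H3C11, MT2A, PGK1 and PIM2. MT2A, a metal-binding metallothionein, was at 9.95 and 10.88 with both agents and at 11.91 and 11.81 in control (-1.44, adjusted p = 0.0344), and its other probe sets were at -1.66 and -1.37.

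The genes that rose included many with a low level in control: 36 of the 95 (37.9%) were under 6 there, while the share was 10.3% for the genes that fell and 27.2% for all genes tested. Olfactory receptors, odour receptors of the nose, served as a view of such low genes. Over all 335 of them, of which 22 were high enough to test, the median level was 3.52 and 3.36 on the combination arrays and 3.22 and 3.27 on the control arrays. Those 22 passed by a mean that includes the combination arrays. Of them, 20 had a higher mean, 18 in both experiments, with a median of 0.56, while 57.1% of all genes tested had a lower mean. With the block 8 rose, beside 2.84% of all genes tested. Without the block 2 rose, where 0.756% of all genes tested did. They were OR51E1, at 7.89 and 9.37 against 6.41 and 5.70 in control (2.58, adjusted p = 0.0455), and OR2AT4, at 7.68 and 7.18 against 5.25 and 4.59 (2.51, adjusted p = 0.0254). Without either control array no olfactory receptor was called, and without the combination array of experiment 2 there were 4. The part of this shift at low levels in the other rises was not tested. LINC00965, REXO1L1P, REXO1L2P and ANKRD20A11P, with rises of 2.67, 2.39, 1.87 and 2.01, belong to repeated families, so that the copy behind each signal is uncertain. All but ANKRD20A11P rose more in experiment 1 by over 1 unit.

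Of the rising genes with a control level of at least 6, DAPP1, a signalling adaptor of B cells, was at 8.15 and 8.64 with both agents and at 6.66 and 5.53 in control (2.30, adjusted p = 0.0134). PTAFR, the platelet-activating factor receptor, was at 7.74 and 7.35 against 6.01 and 6.01 in control (1.53, adjusted p = 0.0132). TXK, a TEC family kinase, was at 7.53 and 7.76 against 6.06 and 6.07 in control (1.58, adjusted p = 0.0242). These 3 had separate groups and were picked as called genes with large rises. SEC11C, a signal peptidase subunit, rose by 1.52, MPZL3 by 1.54, CRYM, a thyroid hormone binding protein, by 1.48 and ERV3-1, an endogenous retroviral envelope gene, by 1.47. TOB2, an antiproliferative protein, was at 10.94 and 10.38 against 8.77 and 8.93 in control (1.81, adjusted p = 0.0102). It had 2 further probe sets. The first had the same changes (2.17 and 1.45) and control mean (8.85) as this one, so it gave no separate reading. The second changed much less (0.58 and 0.16, mean 0.37), so the size of the rise of TOB2 depended on the probe set. The rising genes with the highest control level were CD226, ARHGAP21 (0.775), TESC (0.695), CD84 (1.03), a SLAM family receptor of platelets and leukocytes, and KIAA1143 (1.03). Further large rises were those of MAPK4, at 8.38 and 7.49 against 6.01 and 5.42 in control (2.22, adjusted p = 0.00969), ZNF595 (2.27) and LINC00299 (1.71).

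**Figure D5:**
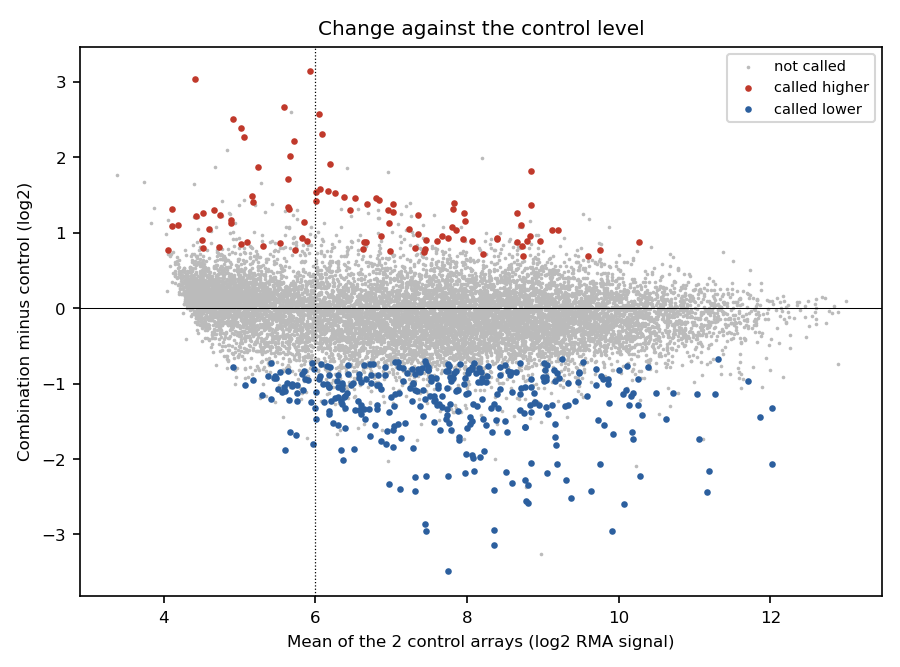
Change with both agents against control (vertical, log2) against the mean level of the 2 control arrays (horizontal, log2 RMA signal) for the 12570 tested genes, with the 95 genes called higher in red and the 341 called lower in blue. The dotted line marks a control level of 6, below which 36 red and 35 blue points lie; at levels of 9 and above 5 points are red and 72 are blue.

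Genes with the largest difference between the experiments were chosen by that difference and have no test. RGS2, which speeds the end of G protein signals, changed by -3.36 in experiment 1 and -0.13 in experiment 2, and its control arrays were at 8.33 and 6.36. CDKN3, a mitotic phosphatase, changed by -2.62 and -0.24. RASA4, a RAS GTPase activator, changed by 2.10 and 0.15, and USP17L6P and DNM1P46, members of repeated families, by 3.17 and 1.03 and by 2.10 and 0.05. REXO1L1P, by 3.36 and 1.42, was also among them, as was RBMY2EP, a Y chromosome pseudogene. None of these except REXO1L1P was called.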

How the data were processed

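Transcripts of HEL cells were measured on 8 Affymetrix whole-transcript arrays, from 150 ng of total RNA each per the labels' protocols. The deposited values are log2 signals made by the authors with RMA in Affymetrix Expression Console, per the submitters' processing notes. The log base was inferred from the values. RMA summarises the probes of a set and brings all arrays to one distribution, which compresses low signals and can hide a shift common to most genes. No depth applies to arrays, and their number limits the precision.

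Gene names came from the annotation of the array platform, in which 19181 probe sets had exactly 1 gene, 2055 several and 12061 none, and 19143 of the first were found in the RefSeq gene table. Of 17958 genes, 895 had more than 1 probe set, and the set with the highest mean stood for the gene. Genes with a mean under the 30th percentile (4.37) were left out, which left 12570. Using limma 3.58.1 in R 4.3.3, 4 group means were estimated from all 8 arrays together (4 residual degrees of freedom, 4.65 from moderation), contrast combination minus control, with Benjamini-Hochberg adjustment over all 12570 genes and calls at an adjusted p below 0.05. The fit was tested on simulated data.

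Each array is labelled as part of a first or a second experiment, and these numbers pair the arrays. Across genes, deviations from the group means correlated within an experiment at 0.123 for combination and control, and at 0.103 to 0.674 for the other pairs. What separated the experiments is not stated, and p-values cover only how far these cultures and arrays varied.

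The comparison, gene lists and members were chosen with earlier results of these data known. Named genes were 15 called genes at each end of the ranked changes, the 10 with the largest rise at a control level of at least 6, the 5 in each direction with the highest control level, up to 4 members of each list with the smallest p, the drug targets, and the 5 in each direction whose change differed most between experiments. A list's other members are given as examples. Promoters and the microRNA are RefSeq sequences on GRCh38.p14, and 27305 promoters were searched. Alternatives were the block, other filters and scalings, other probe set rules, the 4 arrays alone, a variance trend, robust moderation, a 2-fold minimum and leaving out arrays.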

Additional observations from a re-analysis of the deposited data

Results flagged for a closer look

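Some results had opposite signs in the 2 experiments, each with 1 array a group, and the difference between the experiments was not tested. Among the gene lists, the median change was 0.065 in experiment 1 and -0.08 in experiment 2 for lysosome genes, -0.295 and 0.145 for heme synthesis and iron genes, -0.16 and 0.015 for blood progenitor genes, -0.38 and 0.24 for erythroid markers, and 0.27 and -0.405 for fibroblast and epithelial markers. Among the named genes, CRISP3, a granule protein of the CAP family, changed by -2.75 and 0.17, RELN, an extracellular glycoprotein, by -2.34 and 0.22, and LXN, a carboxypeptidase inhibitor, by -0.48 and 1.74. None of these 3 genes was called.

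Probe sets outside the comparison also differed between the groups. In a fit over all 33297 probe sets, 52 of the 12061 that the annotation does not name were higher and 12 lower with both agents than in control (0.531%), and of the 2055 that name several genes, 5 were higher and 11 lower (0.779%). In the same fit 21 of the 19181 probe sets naming 1 gene were higher and 100 lower (0.631%).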

How the results depend on the processing

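The 95 higher and 341 lower genes numbered 357 and 1025 with the experiment as a block, 31 and 122 from the 4 compared arrays alone, 57 and 219 with a 2-fold minimum, 174 and 184 after median normalization, 129 and 220 after quantile normalization, and 54 and 163 with both the combination and the LY2784544 array of experiment 1 left out, a setting chosen after seeing the data. With those 4 arrays and the block, limma called 0 higher and 0 lower genes, while 2576 had an unadjusted p below 0.05 and the smallest adjusted p was 0.0554. Leaving out 1 array gave 3 to 136 higher and 54 to 423 lower genes. Other filters, a variance trend, robust moderation and other probe set rules stayed within 1.5 times (64 to 102 and 246 to 351). The 61 genes 2-fold higher in both experiments numbered 105 probe sets when every probe set counted, and the 187 lower ones 119 after median normalization; settings for these counts were chosen after seeing the data. Without 1 array the change of CRISP3 ranged from -2.725 to 0.145 and that of RELN from -2.27 to 0.15, both above 0 without the combination array of experiment 1, alone or with the LY2784544 array of that experiment, and that of LXN from -0.025 to 1.285, below 0 without the combination array of experiment 2. The cause was not tested. With 2 arrays a group, genes near the 4.37 level are compressed and small changes were not detectable.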

Other observations

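The genes of the next paragraphs lay outside the lists and were named after their values were seen. MIR21, the gene of a microRNA abundant in many tumours and known as a STAT3 target, was at 5.89 and 4.58 with both agents and at 7.86 and 7.06 in control, with no overlap (-2.22, SE 0.48, limma adjusted p = 0.0449). Its probe set reads the gene on an array for long transcripts, so the mature microRNA was not measured. The mature sequence in RefSeq is shown with its seed, bases 2 to 8, in capitals (GRCh38.p14, chr17:59841273-59841294, plus strand).
hsa-miR-21-5p: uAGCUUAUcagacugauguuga

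Metallothioneins, small proteins that bind zinc and copper, were also lower. Of 9 genes of the MT1 and MT2 groups with a probe set, 8 were tested and all 8 had a lower mean. Of these, 5 fell (MT1E, MT1G, MT1L, MT1X and MT2A), and 7 with the experiment as a block. Over all genes tested, 57.1% had a lower mean, 2.71% fell and 8.15% fell with the block. Their median was -1.255 (-1.61 in experiment 1 and -0.89 in experiment 2). MT1G was at 6.92 and 7.48 with both agents and at 8.98 and 8.56 in control (-1.57, adjusted p = 0.0169), and MT1X at 6.18 and 6.96 against 8.18 and 7.95 in control (-1.49, adjusted p = 0.021). These copies are alike in sequence and may share signal. MTF1, the zinc-sensing factor that induces them, was at -0.12 and did not pass.

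Pairs of genes that act together also fell. ITGAL and ITGB2, the chains of the leukocyte integrin LFA-1, were at -2.33 (adjusted p = 0.00465) and -1.34 (adjusted p = 0.0491), and ABCA1 and ABCG1, exporters of cholesterol, at -1.88 (adjusted p = 0.00906) and -1.32 (adjusted p = 0.0126). IFI30, a lysosomal thiol reductase that aids class II presentation, was at 4.89 and 5.16 with both agents and at 6.53 and 6.90 in control (-1.69, adjusted p = 0.00465), and IFNGR2, a chain of the interferon gamma receptor, at -1.51 (adjusted p = 0.00642). IDH1, the cytosolic isocitrate dehydrogenase, rose, with 9.82 and 9.76 against 8.88 and 8.78 in control (0.96, adjusted p = 0.0308), and so did ITGA6, an integrin subunit (1.41, adjusted p = 0.037).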
